A study of Mus musculus with 24 samples.

Results

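The blood-brain barrier genes described here are 34 genes of brain capillary endothelial cells and of the pericytes and smooth muscle cells around them. They were taken by name from the platform's gene symbols, all 34 were on the array with 1 probe set each, and they stand among 19505 genes in all. They comprised 3 tight junction genes, 7 transporters, 16 other endothelial genes and 8 mural genes, the mural cells being the pericytes and smooth muscle cells of the vessel wall. The tissue was the whole hemisphere, and all animals were C57Bl/6j males between 8 and 10 weeks old. A filament inside the vessel blocked the middle cerebral artery for 90 min in 8 of them (middle cerebral artery occlusion, MCAO), and 4 had sham surgery. The MCAO mice were killed 30 min after the occlusion ended, 2 h after its onset. No such times are recorded here for the sham mice. All mice were perfused with cold saline. The ipsilateral (operated) and contralateral hemisphere of each mouse went on an Affymetrix array of its own, 24 arrays in all. A hemisphere holds the territory of the closed artery together with tissue outside it, and vessel cells are a minor part of its RNA.

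In brain capillaries, endothelial cells are joined by tight junctions made of claudins and occludin, which the scaffold protein ZO-1 ties to the actin skeleton. Carriers in their membranes bring nutrients in, and efflux pumps turn drugs and lipophilic compounds back to the blood. Pericytes share the basement membrane with the endothelium and help to keep it sealed, while smooth muscle cells set the width of arterioles, and loss of this seal after ischaemia and reperfusion is a known part of stroke.

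A set of 4 arrays stood apart, those of both hemispheres of MCAO mouse 3 and of sham mouse 1. The median correlation of these 4 with the other arrays was 0.328 to 0.55, against 0.981 to 0.989 among the other 20 arrays, and their background was 7.41 to 7.61 on the log2 scale against 5.17 to 5.74. The values below come from the 20 arrays of 7 MCAO and 3 sham mice, and the values from all 24 arrays are given where they bear on a result. A signal counted as above background when it passed the 95th percentile of an array's negative controls. Means of the positive controls ran from 6.626 to 6.738 on ipsilateral MCAO arrays. On those of sham mice 2, 3 and 4 they were 6.51, 6.584 and 6.745, so sham mice 2 and 3 lay below all ipsilateral MCAO arrays. Contralaterally they overlapped, at 6.593 to 6.708 after MCAO and 6.596 to 6.71 after sham surgery.

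For orientation, the 250 bases before the RefSeq start site are printed for the 5 members whose unadjusted p was below 0.05 in any comparison that involved MCAO mice (RefSeq sequence, GRCm38.p6, 5′ to 3′ on the strand of the gene). Capitals mark each match, on either strand, to the core of the hypoxia response element (ACGTG or GCGTG) or to the cyclic AMP response element (TGACGTCA). The files measured RNA and no binding to these stretches.
Cldn5, chr16:18776597-18776846, plus strand: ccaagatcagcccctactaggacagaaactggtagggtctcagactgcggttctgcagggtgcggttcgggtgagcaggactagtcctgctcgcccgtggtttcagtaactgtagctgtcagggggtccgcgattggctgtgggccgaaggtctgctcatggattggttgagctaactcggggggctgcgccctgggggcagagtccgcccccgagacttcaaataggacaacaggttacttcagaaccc
Flt1, chr5:147726012-147726261, minus strand: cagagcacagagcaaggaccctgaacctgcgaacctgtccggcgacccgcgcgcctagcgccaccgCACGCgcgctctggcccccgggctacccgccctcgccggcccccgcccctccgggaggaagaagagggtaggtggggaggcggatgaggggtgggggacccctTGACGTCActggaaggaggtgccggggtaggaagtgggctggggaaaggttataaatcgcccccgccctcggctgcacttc
Edn1, chr13:42301226-42301475, plus strand: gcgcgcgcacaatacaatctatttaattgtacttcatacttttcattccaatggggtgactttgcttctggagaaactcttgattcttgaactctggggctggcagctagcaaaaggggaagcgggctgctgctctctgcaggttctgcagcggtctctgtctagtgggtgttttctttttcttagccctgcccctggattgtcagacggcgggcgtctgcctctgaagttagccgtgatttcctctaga
Slc16a1, chr3:104638414-104638663, plus strand: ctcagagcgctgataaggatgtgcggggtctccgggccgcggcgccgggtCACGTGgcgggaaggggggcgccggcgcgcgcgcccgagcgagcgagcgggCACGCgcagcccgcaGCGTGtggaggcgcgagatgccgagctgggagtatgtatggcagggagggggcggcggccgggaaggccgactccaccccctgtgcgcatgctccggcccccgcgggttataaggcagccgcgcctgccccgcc
Acta2, chr19:34255374-34255623, minus strand: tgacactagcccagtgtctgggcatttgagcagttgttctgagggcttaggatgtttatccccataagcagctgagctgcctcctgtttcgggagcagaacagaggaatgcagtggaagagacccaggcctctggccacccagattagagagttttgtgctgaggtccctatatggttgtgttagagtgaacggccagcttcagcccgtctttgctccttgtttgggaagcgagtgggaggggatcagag

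The window of Slc16a1 held the hypoxia core at 4 places counted over both strands, of which a pair overlap in the palindrome CACGTG. The window of Flt1 held the hypoxia core and the cyclic AMP response element at 1 place each, the latter 81 bases before the start. No match lay in the windows of Cldn5, Edn1 and Acta2, which says only that these letters are not in those windows. Either hypoxia core occurred in 38.6% of all 32851 promoter windows of this length, and in those of 8 of the 23 members that the table held. The cyclic AMP response element occurred in 1.55% of the windows, and among members in those of Flt1 and Abcg2. Both percentages count single windows, while members were counted by gene over any of its windows, so these are unlike units.

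Signal was above background on all 20 arrays for 16 of the 34 members, on some for 8 and on none for 10, while the corresponding numbers over all 22206 probe sets tested were 7360, 3226 and 11620. All 7 transporters passed on every array. Among tight junction genes Cldn5 and Tjp1 passed and Ocln did not, on any array. Of the 16 endothelial genes only Ly6c1, Eng and Flt1 passed on every array, and Vwf, Tek, Tie1, Angpt2, Nos3, Sox17, Sox18 and Foxf2 passed on none. Among mural genes Pdgfrb, Rgs5, Acta2 and Vtn passed on every array and Anpep on none. Markers of both endothelial and mural cells were thus measurable, while the defining endothelial receptors Tek and Tie1 were above background on no array. Probe sets differ in how brightly they bind, so a level is compared here only with the same probe set on another array.

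**Figure D1:**
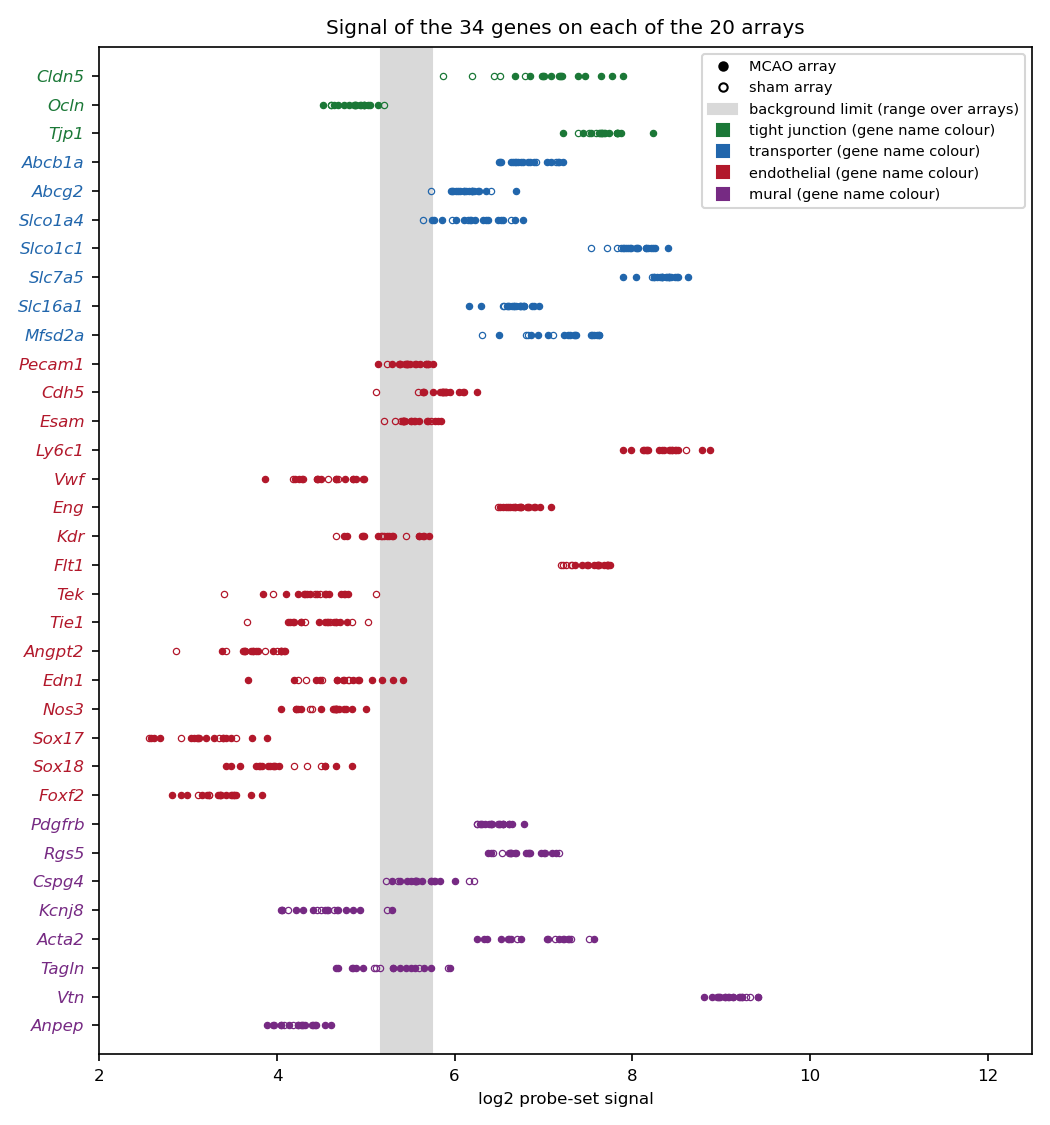
Log2 probe-set signal (horizontal axis) of each of the 34 genes on each of the 20 arrays, with filled circles for MCAO and open circles for sham arrays, coloured by class. The grey band is the range of the background limit over arrays, 5.17 to 5.74; all 7 transporters lie to the right of their arrays' limits and 10 genes lie below theirs throughout.

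In none of 5 comparisons did a member pass the test. The comparisons were the ipsilateral against the contralateral hemisphere of the same mice after MCAO, the same after sham surgery, the difference between these differences, and MCAO against sham mice within each hemisphere. They were fitted with limma over all 22206 probe sets, with Benjamini-Hochberg adjustment and a threshold of 0.05. Between the hemispheres of MCAO mice 0 of 34 members were called against 0.135% of all probe sets, and ipsilaterally in MCAO against sham mice 0 of 34 against 0.149%. In each of the other 3 comparisons 0 of 34 members and 0.00% of all probe sets were called. With all 24 arrays the member count was 0 in every comparison as well, with 0.0856% of probe sets called between the hemispheres of MCAO mice and 0.00450% ipsilaterally against sham.

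At an unadjusted p below 0.05, 2 members (Edn1 and Slc16a1) stood out between the hemispheres of MCAO mice, where 7.10% of all probe sets did. The corresponding members were Edn1 in sham mice (5.49% of all probe sets), Slc16a1 for the difference of the differences (5.91%), Cldn5, Flt1 and Acta2 ipsilaterally against sham (7.48%), and Cldn5 and Flt1 contralaterally against sham (4.59%). These shares of members, between 2.94% and 8.82%, lay near the shares of all probe sets. By sign alone, 17 of 34 log2 differences lay above 0 between the hemispheres of MCAO mice (48.4% of all probe sets), 17 in sham mice (48.9%) and 17 for the difference of the differences (50.0%). Against sham, 24 lay above 0 ipsilaterally (51.9%) and 22 contralaterally (52.5%). The 95% confidence intervals state how large a difference in signal these arrays leave room for. For a member below background, a narrow interval does not bound the change in its RNA. Between the hemispheres of MCAO mice all 34 intervals lay within a log2 difference of 1 either way, which is 2-fold, and 29 within 0.5, which is 1.41-fold. The sham groups of 3 mice gave wider intervals, with 15 of 34 within 0.5 ipsilaterally and 19 of 34 contralaterally. In each of those hemispheres 33 of 34 intervals lay within 1, the exception being Cldn5. Of the 16 members above background on all arrays, 15 had intervals within 0.5 between the hemispheres of MCAO mice. Against sham these counts were 7 ipsilaterally and 11 contralaterally. In bulk tissue, fewer cells of a type and less RNA per cell cannot be told apart.

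**Figure D2:**
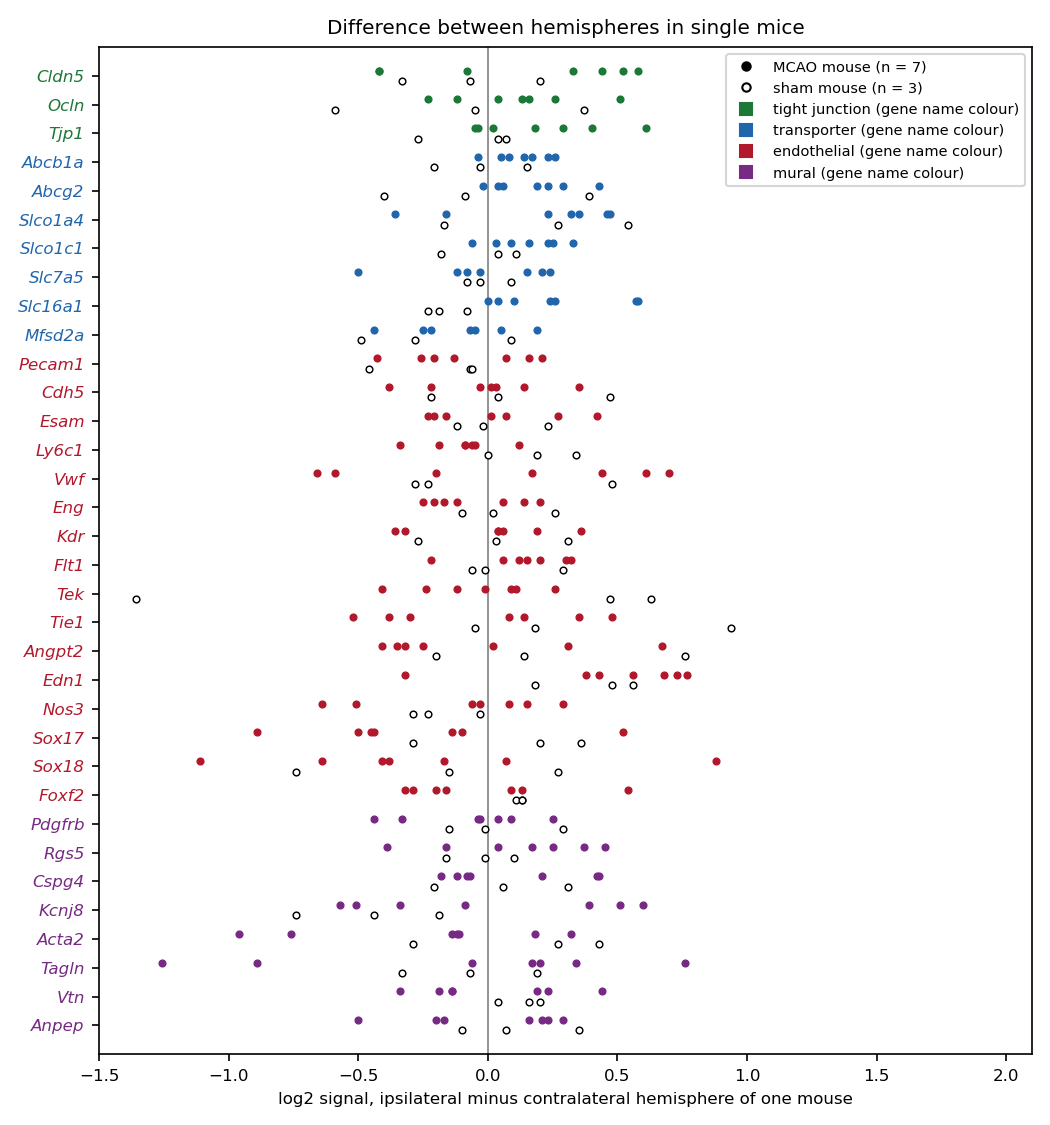
Difference in log2 signal between the hemispheres of a single mouse (horizontal axis, ipsilateral minus contralateral) for each of the 34 genes, with filled circles for 7 MCAO mice and open circles for 3 sham mice. Points fall on both sides of 0 for nearly every gene; those of Slc16a1 lie at or to the right of 0 in the MCAO mice and to its left in the sham mice, and those of Edn1 lie to the right of 0 except in 1 MCAO mouse.

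Claudin-5, encoded by Cldn5, is the main claudin of brain endothelium and the member with the smallest p in the comparison of MCAO with sham mice. Its ipsilateral log2 signal was 7.47, 7.65, 7.20, 6.98, 7.77, 7.18 and 7.01 in MCAO mice 1, 2, 4, 5, 6, 7 and 8, and 5.87, 6.44 and 7.00 in sham mice 2, 3 and 4. Of the sham values only that of mouse 4 reached the range of the MCAO mice, so the groups overlapped by that mouse. The log2 difference was 0.89 ± 0.23 (SE, n = 7 and 3), or 1.85-fold with a 95% interval from 1.32 to 2.59, but the limma adjusted p was 0.285. With all 24 arrays it was 1.06 ± 0.65 (adjusted p = 0.968).

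Contralaterally Cldn5 stood at 7.89, 7.21, 6.68, 7.39, 7.19, 6.85 and 7.09 in the same MCAO mice and at 6.20, 6.51 and 6.79 in the sham mice. MCAO mouse 4 lay within the sham range and the other MCAO mice above it. The log2 difference was 0.68 ± 0.22, or 1.61-fold, with a limma adjusted p of 1, and 0.87 ± 0.60 with all 24 arrays (adjusted p = 0.997). The difference between the hemispheres of MCAO mice was 0.14 ± 0.14 (adjusted p = 0.923), with 4 of 7 mice higher ipsilaterally. The sham mice also differed among themselves, with mouse means from 6.04 in mouse 2 to 6.89 in mouse 4. The positive control means of sham mice 2, 3 and 4 rose in the same order. They were 6.51, 6.584 and 6.745 ipsilaterally and 6.596, 6.641 and 6.71 contralaterally. Among ipsilateral MCAO arrays the highest positive control mean, 6.738 in mouse 5, went with the lowest Cldn5, 6.98. The part of array quality in the Cldn5 values was not tested. The means of the 10 endothelial marker genes, Cldn5 included, ran from 6.00 to 6.19 in ipsilateral MCAO arrays and from 5.79 to 6.03 in ipsilateral sham arrays, so these ranges overlapped too. Of those markers 4 of 10 were above background on all arrays, and their part in the Cldn5 values was not tested.

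Tjp1 encodes ZO-1. Its signal ran from 7.62 to 8.23 (median 7.83) in ipsilateral and from 7.22 to 7.87 (median 7.64) in contralateral MCAO hemispheres, and from 7.39 to 7.68 and from 7.51 to 7.66 in the sham hemispheres. The MCAO hemispheres overlapped and differed by 0.20 ± 0.10 on the log2 scale (limma adjusted p = 0.729), with 5 of 7 mice higher ipsilaterally. Ocln, which encodes occludin, lay between 4.52 and 5.20 on all arrays and was not above background on any. Of the other junction genes listed, 15 of 17 were on the array, 6 of them above background throughout, and 0 were called in any comparison. Their median log2 difference was -0.01 between the hemispheres of MCAO mice and 0.07 ipsilaterally against sham, beside 0 and 0.01 over all probe sets. Cldn3, another claudin, had the smallest p of that list between the hemispheres of MCAO mice, but its signal was above background on 0 arrays.

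The transporters were measured best. Slc16a1 encodes the monocarboxylate transporter MCT1, which carries lactate, pyruvate and ketone bodies. As for the other transporters, whole hemispheres do not tell which cells its signal came from. Its ipsilateral signal was 6.61, 6.95, 6.74, 6.89, 6.77, 6.87 and 6.78 in MCAO mice 1, 2, 4, 5, 6, 7 and 8, against 6.60, 6.69, 6.16, 6.65, 6.67, 6.30 and 6.74 contralaterally. It was higher ipsilaterally in 7 of 7 MCAO mice, by almost nothing in mouse 1 and most in mice 4 and 7, whose contralateral values were the lowest. In sham mice 2, 3 and 4 it was 6.56, 6.59 and 6.55 ipsilaterally and 6.75, 6.67 and 6.78 contralaterally, lower ipsilaterally in 3 of 3. A single sign in every mouse was seen for 1 of 34 members after MCAO and for 2.45% of all probe sets, and in the 3 sham mice for 7 of 34 members and 5326 of all 22206 probe sets.

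The ipsilateral minus contralateral log2 difference of Slc16a1 was 0.26 ± 0.09 in MCAO mice (n = 7; limma adjusted p = 0.551) and -0.17 ± 0.14 in sham mice (n = 3; adjusted p = 0.989). These differences did not overlap between the surgery groups, as was so for 1 of 34 members and 2.02% of all probe sets. The difference between them was 0.42 ± 0.17 with an unadjusted p of 0.0237, which did not pass adjustment (adjusted p = 0.757). With all 24 arrays the MCAO difference was 0.24 ± 0.11 (adjusted p = 0.940) and the difference between the surgery groups 0.38 ± 0.19 (adjusted p = 0.891). Ipsilaterally, MCAO mice lay above sham mice without overlap, by 0.24 ± 0.12 (adjusted p = 0.677), and the groups did not overlap for 1 of 34 members and 2.38% of all probe sets. Contralaterally the log2 difference was -0.19 ± 0.15 (adjusted p = 1), and the groups overlapped.

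The other 6 transporters had overlapping groups in each MCAO comparison. Slco1c1 encodes the thyroid hormone carrier OATP1C1. It ran from 7.91 to 8.40 (median 8.21) in ipsilateral and from 7.90 to 8.18 (median 7.97) in contralateral MCAO hemispheres, and from 7.53 to 8.16 and from 7.71 to 8.05 in those of sham mice. It was higher ipsilaterally in 6 of 7 MCAO mice, at 0.15 ± 0.08 (limma adjusted p = 0.786), and stood 0.30 ± 0.15 above sham ipsilaterally (adjusted p = 0.684), with overlap in both. The efflux pumps P-glycoprotein (Abcb1a) and breast cancer resistance protein (Abcg2) were each higher ipsilaterally in 6 of 7 MCAO mice, by 0.13 ± 0.08 and 0.17 ± 0.10. Slco1a4, an organic anion carrier, showed 0.19 ± 0.12 in MCAO and 0.21 ± 0.18 in sham mice.

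Slc7a5, the LAT1 carrier of large neutral amino acids, lay between 7.89 and 8.63 on all 20 arrays and differed by -0.02 ± 0.09 between the hemispheres of MCAO mice. Mfsd2a encodes the carrier of lysophosphatidylcholine with docosahexaenoic acid and holds back transcytosis. Its level was 7.62 and 7.53 in the hemispheres of sham mouse 2, 6.31 and 6.80 in those of sham mouse 4, and 6.50 and 6.94 in those of MCAO mouse 5. Mouse means of Mfsd2a ran from 6.56 to 7.60, and the difference between the hemispheres of MCAO mice was -0.11 ± 0.10 (limma adjusted p = 0.90). Over the 7 transporters the median log2 difference was 0.15 between the hemispheres of MCAO mice, -0.03 in sham mice and 0.18 ipsilaterally against sham, with 0 called. Of the other barrier transporters and transcytosis genes listed, 24 of 25 were on the array, 11 above background throughout, and 0 were called, with a median of 0.02 between the hemispheres of MCAO mice.

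**Figure D3:**
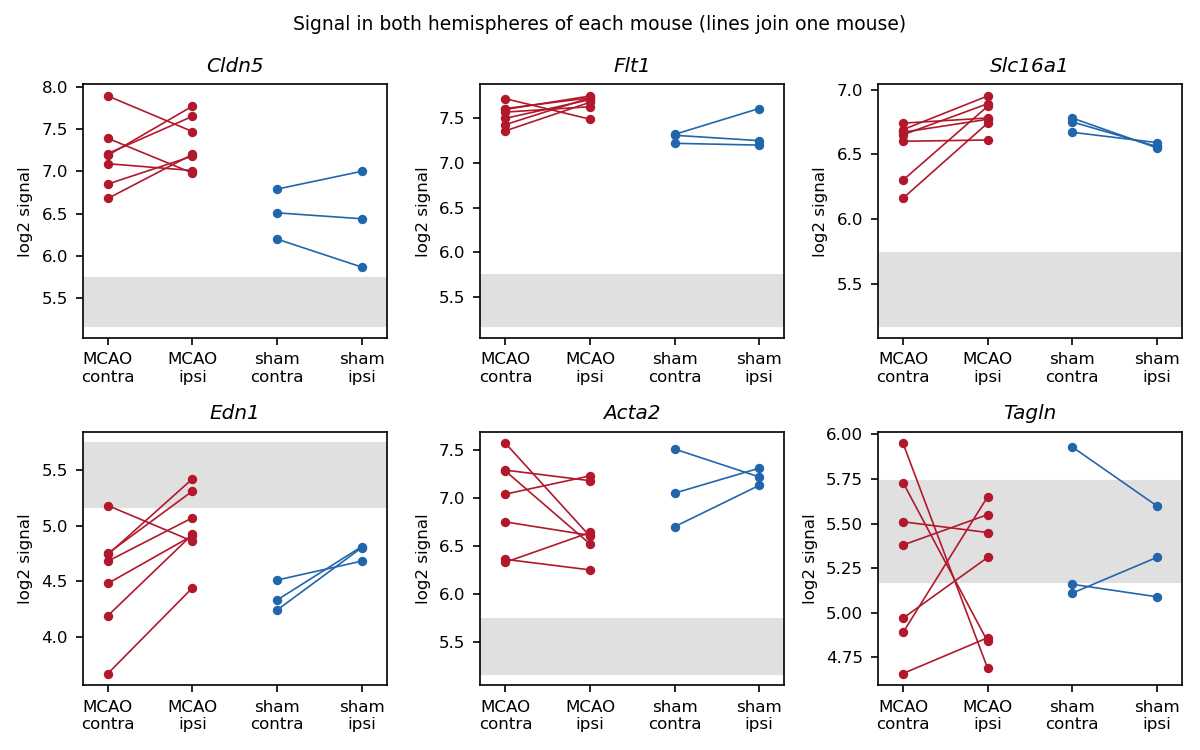
Log2 signal (vertical axis) of 6 genes in the contralateral and ipsilateral hemisphere of each MCAO mouse (red, n = 7) and sham mouse (blue, n = 3), with lines joining the hemispheres of a mouse and a grey band for the range of the background limit, 5.17 to 5.74. Cldn5 lies lower in sham than in most MCAO mice on both sides, Slc16a1 slopes up in MCAO and down in sham mice, Edn1 lies mostly under the band, and Acta2 and Tagln both slope down from a high contralateral value in MCAO mice 1 and 7.

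Among the endothelial receptors, Flt1, which encodes VEGF receptor 1, had the clearest signal. Ipsilaterally it was 7.49, 7.68, 7.75, 7.73, 7.71, 7.63 and 7.73 in MCAO mice 1, 2, 4, 5, 6, 7 and 8, and 7.61, 7.25 and 7.20 in sham mice 2, 3 and 4. Only MCAO mouse 1 fell below the highest sham value. The log2 difference was 0.32 ± 0.12 (SE, n = 7 and 3), or 1.25-fold, with a limma adjusted p of 0.599. Contralaterally the MCAO values ran from 7.36 to 7.72 and the sham values from 7.22 to 7.32, with no overlap, as for 1 of 34 members and 1.38% of all probe sets. With all 24 arrays the difference was 0.34 ± 0.27 ipsilaterally (adjusted p = 0.968) and 0.65 ± 0.43 contralaterally (adjusted p = 0.997). The contralateral difference on 20 arrays was 0.26 ± 0.12 (adjusted p = 1), and the hemispheres of MCAO mice differed by 0.13 ± 0.09 (adjusted p = 0.828).

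Kdr, which encodes VEGF receptor 2, was above background on 5 of 20 arrays, all of them of MCAO mice, and on 0 of the 6 sham arrays. The background limit differed by array, so this split is not one of level alone. Contralaterally, 5.30 in MCAO mouse 1 passed its limit of 5.17, while 5.45 in sham mouse 2 stayed under 5.53. Its signal ran from 4.76 to 5.71 in MCAO and from 4.66 to 5.45 in sham hemispheres, so the groups overlapped, and the hemispheres of MCAO mice differed by 0 ± 0.10 (limma adjusted p = 0.999). Tek and Tie1, the angiopoietin receptor and its partner, and the ligand gene Angpt2 were above background on no array, with signals from 3.40 to 5.12, 3.66 to 5.03 and 2.86 to 4.09. Of the listed genes of Vegf, angiopoietin and Notch signalling, 20 of 21 were on the array and 0 were called. Angptl4, which inhibits lipoprotein lipase, had the smallest p of them between the hemispheres of MCAO mice, at -0.36 ± 0.11 (adjusted p = 0.413), with signal above background on 2 of 20 arrays. Adm, which encodes the vasodilator adrenomedullin, was above background on 0 arrays.

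The adhesion and surface genes lay close in both hemispheres. Ly6c1, a surface protein of brain endothelium, ran from 7.90 to 8.79 ipsilaterally and from 7.99 to 8.87 contralaterally in MCAO mice and was lower ipsilaterally in 6 of 7 of them, though by only -0.10 ± 0.08 (limma adjusted p = 0.884). Both hemispheres of MCAO mouse 1 were the highest, at 8.79 and 8.87, and both of mouse 5 the lowest, at 7.90 and 7.99. Whether the probe set separates Ly6c1 from its close relative Ly6c2 was not checked. Eng (endoglin, a TGF-beta co-receptor) differed by -0.05 ± 0.09 between the hemispheres of MCAO mice, and Cdh5 (VE-cadherin, of the adherens junctions) by -0.01 ± 0.10. Pecam1, which encodes the junctional protein CD31, was above background on 9 of 14 MCAO and 1 of 6 sham arrays. Its signal overlapped nonetheless, at 5.14 to 5.76 against 5.24 to 5.70. Here too the limit differed by array. A signal of 5.37 in ipsilateral MCAO mouse 6 passed its limit of 5.23, while 5.46 in contralateral sham mouse 4 stayed under 5.66. Esam, an endothelial adhesion molecule, passed on 11 arrays, and Vwf (von Willebrand factor) on none.

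Of the 16 endothelial genes 11 were above 0 ipsilaterally and 15 contralaterally in MCAO against sham mice, beside 51.9% and 52.5% of all probe sets, with medians of 0.13 and 0.15 and 0 called. Both counts use the same mice, and 8 of the 16 genes were above background on no array. Between the hemispheres of MCAO mice their median was -0.04. Of the other endothelial genes listed, 24 of 26 were on the array, 6 above background throughout, and 0 were called, with medians of 0.03 between the hemispheres of MCAO mice and 0.10 ipsilaterally against sham.

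Edn1, which encodes the vasoconstrictor endothelin-1, had the smallest p among members between the hemispheres of MCAO mice, at a signal near background. It was above background on 3 of 20 arrays, 2 of them ipsilateral and 1 contralateral, all of MCAO mice. The ipsilateral values were 4.86, 5.42, 5.07, 4.91, 5.31, 4.92 and 4.44 in mice 1, 2, 4, 5, 6, 7 and 8, and the contralateral values were 5.18, 4.74, 4.68, 4.48, 4.75, 4.19 and 3.67. All but mouse 1 were higher ipsilaterally, by 0.38 to 0.77, while mouse 1 was at -0.32. The log2 difference was 0.46 ± 0.12 (SE, n = 7) with a limma adjusted p of 0.348. With each of 10 mice left out in turn, it passed only without MCAO mouse 1, at 0.59 ± 0.09 (limma adjusted p = 0.0395). Leaving out the mouse of opposite sign raises the mean and narrows the spread, so this pass is no separate support. With all 24 arrays the difference was 0.40 ± 0.14 (adjusted p = 0.940).

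The sham mice showed the same order for Edn1, with 4.81, 4.68 and 4.80 ipsilaterally and 4.33, 4.51 and 4.24 contralaterally in mice 2, 3 and 4, all below background, so that no fold is given. The difference between the surgery groups in this side difference was 0.06 ± 0.22 (limma adjusted p = 0.994), with an interval from -0.42 to 0.53. Nos3, the endothelial nitric oxide synthase, lay between 4.04 and 5.00 on all arrays and was above background on none. Of 14 other listed genes of endothelin, nitric oxide and vessel tone, 10 were on the array and 0 were called. Among them the endothelin receptor gene Ednrb was at 0.16 ± 0.10 between the hemispheres of MCAO mice, and the ligand gene Edn3 was above background on 0 arrays.

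The transcription factors Sox17, Sox18 and Foxf2, which act in the development of vessels (Foxf2 in brain pericytes as well), were at 2.56 to 3.89, 3.43 to 4.84 and 2.82 to 3.83 and above background on 0 of 20 arrays each, so that no difference is given. The Wnt signals that induce the barrier were listed with 18 genes, of which 16 were on the array, 4 were above background throughout and 0 were called. Adgra2, a co-receptor of Wnt7 also known as Gpr124, was at -0.40 ± 0.13 between the hemispheres of MCAO mice (limma adjusted p = 0.469), with signal above background on 6 of 20 arrays.

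Acta2 (smooth muscle actin) and Tagln (transgelin, an actin-binding protein) are the smooth muscle genes among the mural members. The SD of their side difference over 7 MCAO mice was 0.47 and 0.72, and in the other mural genes it ran from 0.24 for Pdgfrb to 0.50 for Kcnj8. Ipsilateral Acta2 was 6.52, 6.64, 7.23, 6.25, 7.18, 6.60 and 6.61 in MCAO mice 1, 2, 4, 5, 6, 7 and 8, and 7.13, 7.31 and 7.22 in sham mice 2, 3 and 4. Mice 4 and 6 reached the sham range and the other 5 lay below it. The log2 difference was -0.50 ± 0.19 (SE, n = 7 and 3; limma adjusted p = 0.592), and with all 24 arrays it had the opposite sign, at 0.24 ± 0.63 (adjusted p = 0.968). Contralateral Acta2 ran from 6.33 to 7.57 in MCAO and from 6.70 to 7.51 in sham mice.

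Tagln ran from 4.69 to 5.65 ipsilaterally and from 4.66 to 5.95 contralaterally in MCAO mice, and was above background on 9 of 20 arrays. The ipsilateral minus contralateral difference was most negative for both genes in MCAO mouse 1, at -0.76 for Acta2 and -1.26 for Tagln, and in mouse 7, at -0.96 and -0.89. The contralateral values of these mice were high, at 7.28 and 7.57 for Acta2 and 5.95 and 5.73 for Tagln. Their ipsilateral Acta2, at 6.52 and 6.60, lay close to that of mice 2 and 8. Their ipsilateral Tagln, at 4.69 and 4.84, was the lowest of the MCAO mice. Contralateral Acta2 was also high in MCAO mouse 6, at 7.29, with a side difference of only -0.11. In the other 5 MCAO mice the differences ran from -0.14 to 0.32 for Acta2 and from -0.06 to 0.76 for Tagln. The mean over mice was -0.23 ± 0.15 for Acta2 (limma adjusted p = 0.831) and -0.11 ± 0.20 for Tagln (adjusted p = 0.965). Markers of fibroblasts and meninges, which carry the surface arteries, had 1 of 10 genes above background on all arrays and mean levels of 4.56 to 4.95 in ipsilateral and 4.49 to 5.09 in contralateral MCAO hemispheres. The part of such tissue in the Acta2 and Tagln values was not tested.

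The other mural genes are mainly those of pericytes. Pdgfrb, the PDGF receptor of pericytes, ran from 6.28 to 6.65 ipsilaterally and from 6.30 to 6.78 contralaterally in MCAO mice and differed by -0.06 ± 0.10 between them (limma adjusted p = 0.95). Rgs5, a regulator of G protein signalling, differed by 0.10 ± 0.10, and Vtn, which encodes vitronectin, by 0.01 ± 0.10 at levels from 8.81 to 9.42. Cspg4 (the NG2 proteoglycan, also made by oligodendrocyte precursors) was above background on 13 of 20 arrays, with both hemispheres of sham mouse 2 the highest of all, at 6.22 and 6.16. Kcnj8, a potassium channel subunit of pericytes, passed on 1 array, with side differences from -0.57 to 0.60 in MCAO mice, and Anpep (aminopeptidase N) on none. Of the 8 mural genes 4 lay above 0 between the hemispheres of MCAO mice, with a median of 0. Of the other mural genes listed, 25 of 26 were on the array, 3 above background throughout, and 0 were called. Of 16 listed genes of the vascular basement membrane 5 were above background throughout and 0 were called, with a median of -0.10 between the hemispheres of MCAO mice.

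**Figure D4:**
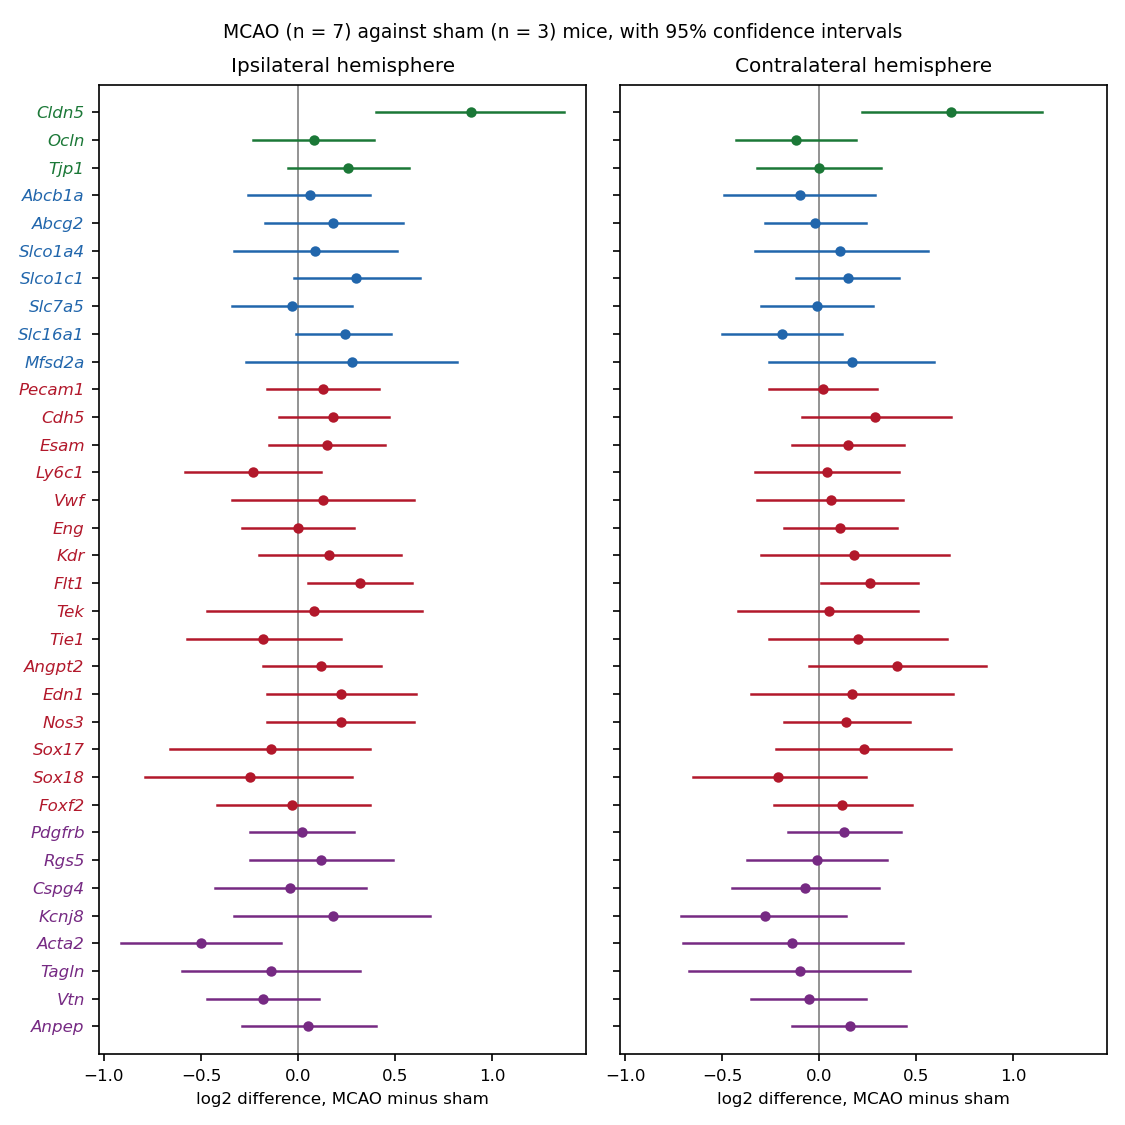
Log2 difference of MCAO (n = 7) minus sham mice (n = 3) in the ipsilateral (left) and contralateral (right) hemisphere, with points for limma estimates and lines for 95% confidence intervals. The interval of Cldn5 reaches furthest from 0 on both sides, to 1.37 and 1.15, those of Flt1 also lie above 0, and that of Acta2 lies below 0 ipsilaterally; no adjusted p passed.

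The genes called in any of the lists were inducible ones. Of 16 listed genes known to respond to stress or cytokines in endothelium, though not only there, 15 were on the array. Of these, 2 were called, both higher ipsilaterally in MCAO than in sham mice, where 0.149% of all probe sets were called. The list was drawn up with earlier results of these data known. Its counts and medians are thus description and no independent support. Apold1, an early response gene of endothelium, ran from 6.04 to 7.19 (median 6.90) in ipsilateral MCAO hemispheres, from 5.78 to 6.43 in contralateral ones, and from 4.84 to 5.26 in all sham hemispheres. None of the sham arrays was above background, so the ipsilateral level was at least 2.37-fold higher (fitted log2 difference 1.77 ± 0.21, limma adjusted p = 0.000659). Adamts1, a secreted protease, ran from 6.38 to 7.47 ipsilaterally in MCAO and from 4.57 to 5.38 in ipsilateral sham hemispheres, none of them above background, and was at least 2.67-fold higher ipsilaterally (1.90 ± 0.23, adjusted p = 0.00105). Contralaterally 1 of 3 sham arrays was above background for Adamts1, which ran there from 5.01 to 5.79.

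Neither call held with all 24 arrays, at 1.63 (limma adjusted p = 0.652) for Apold1 and 1.82 (adjusted p = 0.515) for Adamts1. Between the hemispheres of MCAO mice they were higher ipsilaterally in 6 of 7 mice each, by 0.84 ± 0.15 (adjusted p = 0.0614) and 0.79 ± 0.16 (adjusted p = 0.123). Adamts1 and other genes of this list are also made by cells other than endothelium, and whole hemispheres do not tell the source. The median of the list was 0.44 ipsilaterally and 0.44 contralaterally against sham, beside 0.01 over all probe sets in each, with 1 of its 15 measured genes above background on all arrays. For the 34 barrier genes the medians were 0.10 and 0.08. Foxq1, a Wnt-responsive factor of brain endothelium picked after its values were seen, was above background on 0 arrays, so that no fold is given (ipsilateral adjusted p = 0.227).

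The marker lists of other cells showed no shift between the groups that passed the test, with 0 markers called in any list. Means of the neuron markers ran from 9.71 to 9.92 in ipsilateral MCAO and from 9.66 to 9.80 in ipsilateral sham hemispheres, and those of the astrocyte markers from 8.36 to 8.63 and from 8.28 to 8.50. Means of the oligodendrocyte markers (7 of 8 on the array, all above background throughout) did not overlap ipsilaterally, at 8.58 to 8.87 in MCAO and 8.48 to 8.53 in sham hemispheres, while contralaterally they ran from 8.32 to 8.84 and from 8.61 to 8.75. Their median log2 difference against sham was 0.18 ipsilaterally and -0.09 contralaterally, and its part in the members' values was not tested. Markers of choroid plexus and ependyma (8 of 10 on the array) and of neutrophils and monocytes (8 of 9) held 0 genes above background on all arrays. Of 7 erythroid markers 2 were on the array, and both were below background on every array.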

How the data were processed

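The authors deposited a log2 signal per probe set and array; the submitters' processing notes name Affymetrix Expression Console. Its version, the normalization and the annotation build are not given there, and log2 is the scale that the range of values points to. The mirVana Paris kit (isolation) and GeneChip WT Plus kit (labelling) are named in the labels' protocols. Of 29129 probe sets, 6923 array controls were left out and 22206 tested, with no filter. Genes were named by the platform annotation (19572 probe sets with 1 symbol, 2634 unnamed here), and all 34 members matched RefSeq (GRCm38.p6). Each gene's probe set of highest mean was used.

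limma 3.58.1 in R 4.3.3 (lmFit, eBayes) fitted within-mouse comparisons with mouse as a fixed block and MCAO against sham within a hemisphere with no block. Adjustment of p-values followed Benjamini-Hochberg, and errors are SE unless SD is written. A mouse was left out where either array's median correlation with the others was under 0.9. The hemispheres of a mouse, numbered in the titles, correlated at 0.112 to 0.307 in their deviations from group means (10 pairs), against a median of -0.042 between mice. No pair of arrays was identical. A probe set was above background when over the 95th percentile of the 5222 negative controls of its array. A lower bound of a fold sets each sham array at that limit. The number of arrays limits the precision. Members and lists were chosen with earlier results of these data known. From the other lists, genes called in any comparison were named, and otherwise at most 2 with the smallest p between the hemispheres of MCAO mice. The procedure was also run on simulated data to check its code. Its outcome is not given here and says nothing of how small a change would be found. Python 3.11.15 and matplotlib 3.10.9 drew the figures. Alternatives covered the arrays kept, blocks, variance model, dim probe sets, centring, quantile normalization, array weights and single mice left out.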

Additional observations from a re-analysis of the deposited data

Results flagged for a closer look

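In 102 groups of 7 MCAO values (68 of levels and 34 of side differences), 5 held a mouse farther from its neighbour than Dixon's 95% limit, about as many as chance gives, since it flags about 1 group in 20. Tjp1 stood at 8.23 in the ipsilateral hemisphere of MCAO mouse 5 against 7.62 to 7.83 in the other 6, and Slc7a5 at 7.89 in the same hemisphere against 8.25 to 8.52. The side difference of Edn1 was -0.32 in MCAO mouse 1 against 0.38 to 0.77 in the others. Without this mouse Edn1 passed the limma test (0.59 ± 0.09, adjusted p = 0.0395), a result that removing the mouse of opposite sign itself favours. Nos3 stood at 4.21 in the contralateral hemisphere of MCAO mouse 8 against 4.66 to 4.85, and Sox18 at 4.84 in the ipsilateral hemisphere of MCAO mouse 6 against 3.43 to 4.02, both below background. The causes were not tested.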

How the results depend on the processing

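No member was called in any comparison under any alternative, apart from Edn1 between the hemispheres of MCAO mice without MCAO mouse 1 (limma adjusted p = 0.0395), where the count was 1 (0 to 1 over mice left out). The replicate block changed no call of a member: with no replicate block 0 members were called in the 3 within-mouse comparisons, with smallest adjusted p of 0.822, 1 and 0.999. The number of probe sets called moved more. Between the hemispheres of MCAO mice it was 30, and 19 with all 24 arrays, 19 with only MCAO mice fitted, 84 with a variance trend and robust estimation, 66 with dim probe sets left out (11103 tested), and 18 to 27 over mice left out. Ipsilaterally against sham it was 33, and 1 with all 24 arrays, 51 with mouse as a random block, 50 with trend and robust estimation, and 24 to 46 over mice left out. For the side difference between surgery groups it was 0, and 5 with trend and robust estimation, 2 with dim probe sets left out, and 0 to 8 over mice left out, the 8 without MCAO mouse 6. Contralaterally against sham it was 0, and 1 with trend and robust estimation, 1 with dim probe sets left out, and 0 whichever mouse was left out. In sham mice it was 0, and 0 to 1 over mice left out, the 1 without sham mouse 3. The log2 difference of Cldn5 ipsilaterally against sham ran from 0.61 to 1.17 over mice left out and from 0.79 to 1.06 over the other settings. Over mice left out in turn, uncalled member values changed sign in 33 of 340 cases between the hemispheres of MCAO mice, 25 in sham mice, 36 for the difference between surgery groups, 24 ipsilaterally and 36 contralaterally against sham. A mean over several probe sets was not run, since each member had 1. With 3 sham mice, and 10 members below background throughout, small differences were not detectable for these genes. The causes of the moved counts were not tested, apart from fewer probe sets or mice where the setting itself removes them.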
